A study of Drosophila melanogaster with 37 samples.

Results

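The genes described are those of the Drosophila melanogaster Y chromosome in the transcription unit annotation of the study. A transcription unit is a stranded interval that holds 1 or more genes and over which polymerase signal can be summed. Every gene listed on the Y was taken, which gave 113 genes in 112 units, of 17698 genes in 15991 units in all. RNA polymerase II was profiled by mNET-seq, a method that reads nascent RNA bound to immunoprecipitated polymerase, in 37 samples of stage 15 embryos sorted by sex. The embryos were maternally depleted of mof, the histone acetyltransferase gene of dosage compensation, by UAS-mof RNAi, or had received a control RNAi, and the driver of the constructs is not given in the sources used here. For total polymerase there were 4 female and 3 male samples with mof RNAi, against 4 female and 3 male samples with control RNAi. For polymerase phosphorylated at serine 5 there were 4 female and 4 male samples with mof RNAi, against 3 female and 4 male samples with control RNAi. For serine 2 each of these groups had 2 samples, and each preparation pooled 6000 embryos. Coverage of the samples was not analysed here, so no depth, no level and no effect of mof RNAi is given for any Y gene, and no label could be checked against a marker.

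The fly Y is carried by males and is needed for male fertility rather than for viability. Its best known genes are the fertility factors, which are active in the male germline and make parts of the sperm tail, and some of them carry introns of extreme length filled with repeats. Much of the rest of the chromosome is repetitive and holds families of copied genes and gene remnants, among them the Suppressor of Stellate copies, whose piRNAs silence the X-linked Stellate genes in the testis. Nothing in the annotation shows whether any of these genes was transcribed in embryos.

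The Y units were of 3 kinds rather than of 2. All 113 genes matched a RefSeq entry for the Y, which classed 23 as protein-coding, 62 as pseudogenes and 28 as long non-coding RNAs. Of the 112 units, 8 held a protein-coding gene and measured at least 10000 bp, 15 held a protein-coding gene and were shorter, and 89 held no protein-coding gene. The CR symbol, which FlyBase gives to non-coding genes and pseudogenes, was borne by 88 of these 89 units, the exception being the pseudogene Mst77Y-8Psi. Long coding units ranged from 16933 to 248273 bp (median 103162 bp), short coding units from 309 to 1736 bp (median 875 bp) and non-coding units from 162 to 1848 bp (median 735 bp). No Y unit lay between 1848 and 16933 bp. The short coding units thus had lengths within the range of the non-coding ones, and length alone did not tell the gene classes apart below this gap.

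**Figure D1:**
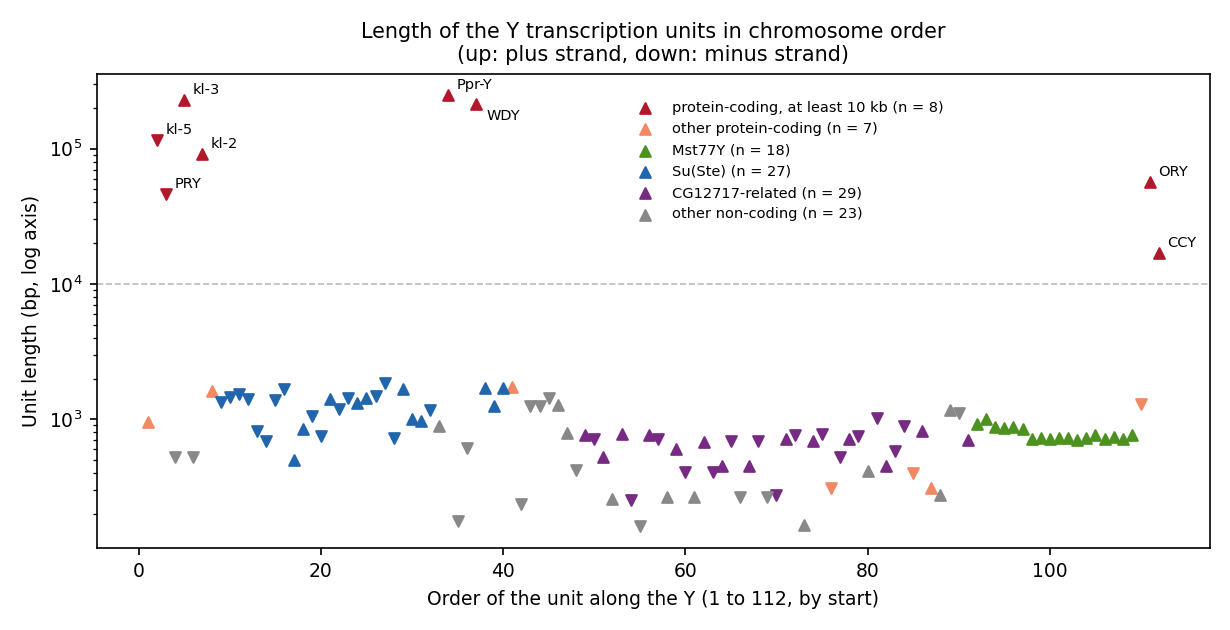
Length of each of the 112 Y units (log axis, bp) against its order along the chromosome by start, with colour for gene class or family and triangle direction for strand; the dashed line marks 10000 bp. The 8 long protein-coding units stand between 16933 and 248273 bp, and all other units at or below 1848 bp. The Su(Ste), CG12717-related and Mst77Y units lie in separate stretches, with other units among the CG12717-related ones and between the Su(Ste) groups.

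The 8 long units made up 7.14% of the units and 92.1% of the summed unit length, 1015194 bp. The 15 short coding units contributed 1.20% and the 89 non-coding units 6.71% of that length. Most of the annotated length of the Y thus lay in 8 units, while most entries were small. The share of units of at least 10000 bp, 7.14% on the Y, was 12.4% over all units of the annotation. It was 37.6% on chromosome 4, 16.0% on the X and 11.6% across the autosome arms 2L, 2R, 3L and 3R. The share of the summed length in such units was not computed for the other chromosomes.

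**Figure D2:**
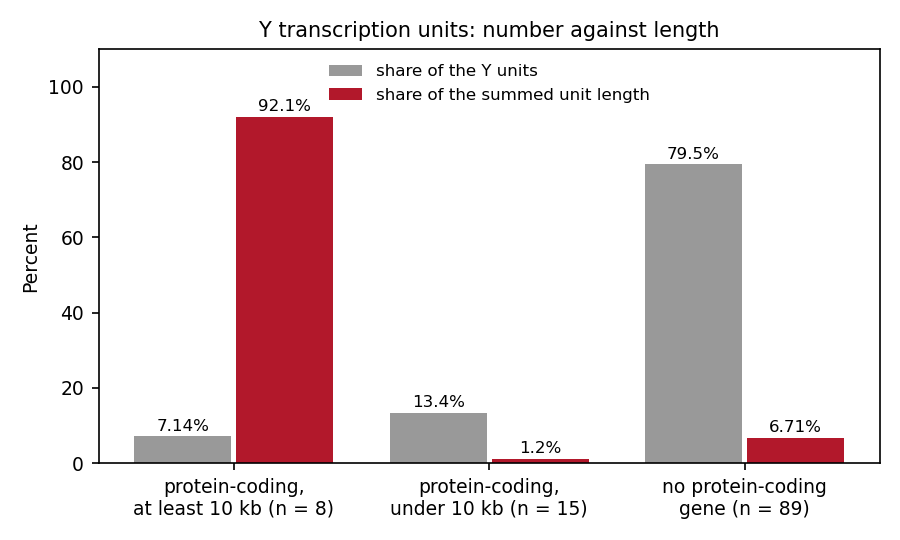
Share of the 112 units (grey bars) and share of the summed unit length (red bars), in percent, for long protein-coding, short protein-coding and non-coding Y units. Long coding units are 7.14% of the units and 92.1% of the length, and non-coding units are 79.5% of the units and 6.71% of the length.

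Of the long units, 3 were dynein heavy chain genes, which encode motors of the sperm tail axoneme. kl-3 (FBgn0267432) spanned 226785 bp from 336381 to 563165 on the plus strand. kl-5 (FBgn0267433) spanned 115237 bp from 22250 to 137486 on the minus strand. kl-2 (FBgn0001313) spanned 91086 bp from 573088 to 664173 on the plus strand, 9922 bp beyond the end of kl-3. A list of 6 genes with a Dhc symbol on other chromosomes, which also encode dynein heavy chains, had shorter units. Other dynein heavy chain genes were not searched for. They measured 32446 bp for Dhc98D on 3R, 24115 bp for Dhc36C on 2L and 19635 bp for the cytoplasmic Dhc64C on 3L, which shared its unit with CG18808. Dhc93AB on 3R measured 17920 bp, Dhc16F on the X 13990 bp and Dhc62B on 3L 12587 bp. The shortest of the 3 Y units was 2.81 times as long as the longest of these 6 units. Medians were 115237 bp for the 3 on the Y and 18777.5 bp for these 6, a ratio of 6.14. These are annotated lengths without replicates, so the difference carries no error and was not tested. How fully the build holds the introns of the Y genes was not checked, so lengths, ratios and ranks describe the annotation alone.

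The other 5 long units held genes of varied kinds. Ppr-Y (FBgn0046697) was the longest Y unit, with 248273 bp from 1636574 to 1884846 on the plus strand. WDY (FBgn0267449), which encodes a WD40 repeat protein, lay in a unit of 214356 bp from 2273422 to 2487777 on the plus strand. That unit also held the pseudogene CR45948, at 2482594 to 2483518, and was the one Y unit with more than 1 gene. ORY (FBgn0046323), the fertility factor ks-1, spanned 56595 bp from 3561745 to 3618339 on the plus strand. PRY (FBgn0267489), named for a relation to polycystins, spanned 45929 bp from 146092 to 192020 on the minus strand, 8605 bp from kl-5. CCY (FBgn0267592), which encodes a coiled-coil protein, was the shortest of the 8, with 16933 bp from 3649996 to 3666928 on the plus strand, and was the last unit of the chromosome.

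Set against all 13046 units with a protein-coding gene, Ppr-Y ranked 9 in annotated length, kl-3 ranked 11 and WDY 15. kl-5 ranked 66, kl-2 109, ORY 261, PRY 367 and CCY 1214. Units of at least 100000 bp numbered 4 of the 23 coding Y units, 0 of 79 on chromosome 4, 22 of 2020 on the X and 61 of 10914 in the autosome arms 2L, 2R, 3L and 3R. With the limit of 10000 bp, chromosome 4 had the larger share of long coding units, 40 of 79 (50.6%) against 8 of 23 on the Y (34.8%). The counts at this limit were 379 of 2020 on the X (18.8%) and 1522 of 10914 in the arms (13.9%). The long Y units lay in 3 stretches of the annotated chromosome, with kl-5, PRY, kl-3 and kl-2 before 664173, Ppr-Y and WDY between 1636574 and 2487777, and ORY and CCY after 3561745. Of the 8, 6 were on the plus strand and 2 on the minus strand.

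The short protein-coding units outside gene arrays were 7. Pp1-Y1, a protein phosphatase 1 catalytic subunit gene, was the first unit of the chromosome, with 954 bp from 9833 to 10786 on the plus strand. Pp1-Y2, a second such gene, measured 1286 bp from 3539437 to 3540722 on the minus strand. A list of 4 relatives on other chromosomes was set beside them, and further relatives were not searched for. Units measured 2297 bp for Pp1-87B, 4062 bp for Pp1alpha-96A and 23858 bp for flw. The Pp1-13C gene of 1961 bp lay in a unit of 28826 bp shared with acj6. Both Y genes had shorter units than these 4 relatives.

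ARY, named for aldehyde reductase, measured 1619 bp from 702430 to 704048 on the plus strand, with 2 annotated transcripts. FDY, a gene derived from the autosomal vig2, measured 1736 bp from 3022289 to 3024024 on the plus strand and also had 2 transcripts, while vig2 on 3R measured 2247 bp and its relative vig on 2L 7386 bp. FDY ended 2 bp before the end of its RefSeq entry, and the other 110 single-gene Y units had the same start and end as RefSeq. The remaining 3 coding units were CG46191 and CG46193, both of 309 bp and on opposite strands, and CG46192 of 402 bp, all without a named function and all among pseudogenes.

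Suppressor of Stellate made up 27 units, all classed as long non-coding RNA. Their lengths ran from 500 bp (Su(Ste):CR42427) to 1848 bp (Su(Ste):CR42414), with a mean of 1252 ± 360 bp (SD over 27 units) and 27 distinct values. A main group of 24 units lay between 869892 and 1040412, a stretch of 170.5 kb or 4.65% of the annotated chromosome. The other 3, Su(Ste):CR42429, Su(Ste):CR42431 and Su(Ste):CR42424, lay between 2559809 and 2595311, past WDY. In the main group 16 units were on the minus and 8 on the plus strand, the strand changed 8 times between neighbours, and gaps ran from 333 to 25216 bp (median 1981 bp). The 3 longest non-coding units of the Y were all of this family, Su(Ste):CR42414 being followed by Su(Ste):CR42429 with 1695 bp and Su(Ste):CR42424 with 1690 bp.

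Most of the Stellate genes on the X, which these copies silence, were laid out more evenly. A group of 12 Ste units lay between 14046772 and 14061817 on the X, all on the minus strand, with 724 bp in 9 of them and at most 1116 bp in the others. Their gaps ran from 515 to 545 bp. Ste12DOR, of 680 bp, lay apart from this group, on the plus strand and 45882 bp before it. The Y family thus had more varied lengths, gaps and strands than the group of 12 on the X, with Ste12DOR left aside, a description with no test.

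Mst77Y, a family copied from Mst77F, an autosomal gene for a sperm chromatin protein, formed a regular array. Its 18 units were all on the plus strand and followed each other with no other unit between them, from 3284939 to 3376984. RefSeq classed 8 as protein-coding, namely Mst77Y-4, CG45764, CG45765, CG45766, Mst77Y-7, Mst77Y-9, CG45770 and Mst77Y-13, and 10 as pseudogenes. Coding units measured 724 to 1007 bp (828 ± 109 bp, SD over 8 units) and pseudogene units 704 to 856 bp (749 ± 55.6 bp, SD over 10 units), so the 2 ranges overlapped. The Mst77F unit on 3L measured 1127 bp, longer than every Y copy.

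One distance recurred over part of the array. Of 17 gaps between consecutive Mst77Y units, 9 were exactly 3700 bp and 1 was 3730 bp. The other 7 ran from 2790 bp, before CR45771, to 15897 bp, before CR45772. No other pair of neighbours on the Y had a gap of 3700 bp. Starts followed each other at a median of 4424 bp. Coding units and pseudogenes alternated without a fixed order, with 4 coding units among the first 5 and none among the last 4, CR45777 to CR45780.

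**Figure D3:**
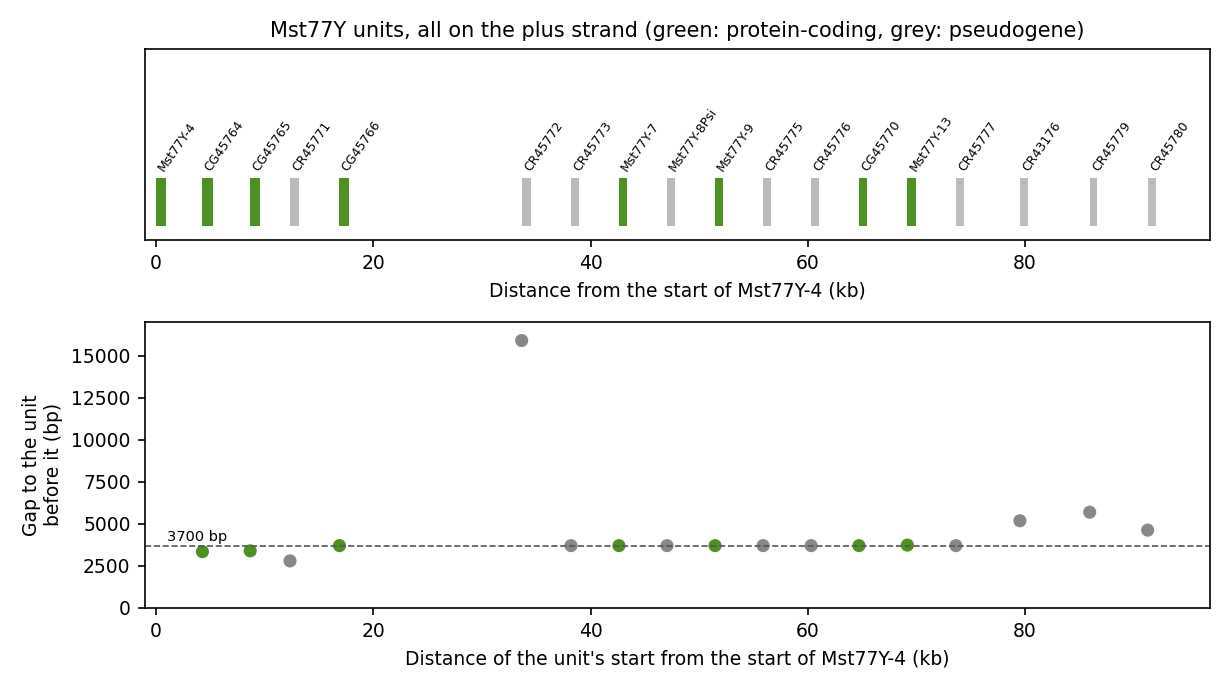
The 18 Mst77Y units drawn to scale by distance in kb from the start of Mst77Y-4 (upper panel, green for protein-coding, grey for pseudogene), and below it the gap in bp to the unit before, with a dashed line at 3700 bp. Of the 17 gaps 9 lie on the line, 1 measures 3730 bp, and the widest, 15897 bp, lies before CR45772.

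A further family of 29 pseudogene units carries the RefSeq synonym CG12717-related, after CG12717, a protein-coding gene on the X with a unit of 2970 bp. The 29 units measured 253 to 1030 bp (642 ± 180 bp, SD), all shorter than that unit, and lay within 212.9 kb from 3060612 to 3273532. In this family 22 units formed 11 tail-to-tail pairs, in which a plus-strand and a minus-strand unit end within 50 bp of each other. In 7 pairs the ends were 13 to 40 bp apart, and in 4 they overlapped, by 12 bp in 3 pairs and by 44 bp in the pair of CR40601 and CR46182. All 11 tail-to-tail pairs of the Y at this distance were of this family, and 7 of its units were in no such pair. Among all adjacent pairs the share that were tail to tail with ends within 50 bp was 9.91% on the Y (11 of 111) and 1.85% on chromosome 4 (2 of 108). It was 4.38% on the X and 5.90% for the autosome arms. Pairs with a longer overlap or a wider gap were left out of these shares. At any distance, 24 of the 111 Y pairs were tail to tail, and the other chromosomes were not counted in that way.

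Lengths and distances recurred within the family. The following units were chosen after their values were seen. CR46172 with CR46173 and CR46175 with CR46176 had the same lengths, 453 and 690 bp, and the same overlap of 12 bp. CR46168 and CR46171, both of 410 bp, each lay 40 bp from a plus-strand partner, CR46167 of 601 bp and CR46170 of 678 bp. Each of these 4 pairs had beside it a pseudogene of exactly 266 bp, which RefSeq does not link to CG12717: CR46166, CR46169, CR46174 and CR46177. The small unit stood 1692 bp from the pair in 2 cases, 1939 bp in 1 and 1968 bp in 1. It lay before the pair and on the plus strand in 2 groups, and after the pair and on the minus strand in the other 2, so the order of these groups was reversed.

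**Figure D4:**
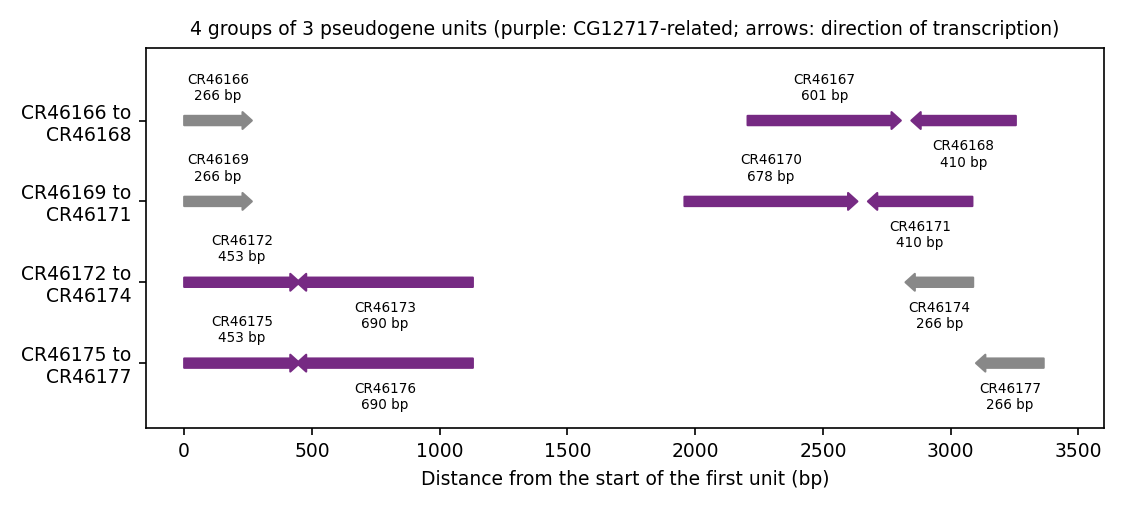
The 4 groups of 3 pseudogene units drawn to scale by distance in bp from the start of the first unit, with arrows in the direction of transcription, purple for CG12717-related units and grey for the 266 bp units. In the upper 2 groups the 266 bp unit comes first, and in the lower 2 it comes last and points the other way.

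The 23 remaining non-coding units were 22 pseudogenes and the long non-coding RNA gene CR40629, of 885 bp at 1122988 to 1123872. They held the 3 shortest units of the Y, CR46163 with 162 bp, CR46181 with 165 bp and CR40441 with 177 bp. Of these 23 units, 18 lay between FDY and CR46152, 7 of them before the first CG12717-related unit and 11 among the units of that family. CR45931, of 610 bp, lay on the minus strand, 6162 bp before WDY. CR45946 and CR45947, both of 526 bp, lay at kl-3. CR45946 was upstream of kl-3 on the opposite strand with starts 470 bp apart, and CR45947 lay inside kl-3, 10239 bp past its start. CR45946 and kl-3 were the only head-to-head neighbours within 500 bp on the Y. CR40441 lay inside Ppr-Y on the opposite strand, 874 bp before its end.

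Families were grouped by position, though Su(Ste) lay in separate groups and other units lay among the CG12717-related ones. When units with gaps of at most 10000 bp were joined, the Y fell into 18 clusters of at least 2 units and 9 single units. The 3 clusters with the most units held 51 of the 112 units (45.5%) in 201083 bp, 5.48% of the chromosome up to the end of its last unit. The first of these, with 21 units, ran from CR46179 to CR46152. The second, with 17 units, ran from FDY to CR46165, and the third, with 13 Mst77Y units, from CR45772 to CR45780. From FDY to CR45780 there were 69 units, 61.6% of the total, in 9.67% of the annotated chromosome, and none of them was long. Much of the annotated chromosome held no unit: 6 gaps of more than 100000 bp added up to 1793141 bp (48.9%), the widest being 512701 bp between CR40629 and Ppr-Y. Positions are those of build dm6, whose sequence was not examined. How much of the Y the build leaves out or holds as unknown bases was therefore not checked.

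Compared with the other chromosomes, the Y as annotated had sparse, short and mostly non-coding units. Counted up to the last unit, it held 30.5 units per Mb, against 85.7 on chromosome 4, 103 for the X and 123 for the autosome arms. Units covered 30.0% of the Y up to its last unit, against 83.6% of chromosome 4, 75.2% of the X and 68.2% of the arms. The share of units with no protein-coding gene was 79.5% on the Y, 27.5% on chromosome 4, 15.8% on the X and 18.2% across the arms. The median unit measured 766 bp on the Y (quartiles 596.25 and 1264.5 bp), 6955 bp on chromosome 4, 2242 bp on the X and 1767 bp across the arms. Median non-coding lengths were closer, at 735 bp on the Y, 934.5 bp on chromosome 4, 629 bp on the X and 618.5 bp across the arms. Among coding units the Y also had the lowest median, 1007 bp, against 10426 bp on chromosome 4, 2682 bp on the X and 2148 bp across the arms.

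**Figure D5:**
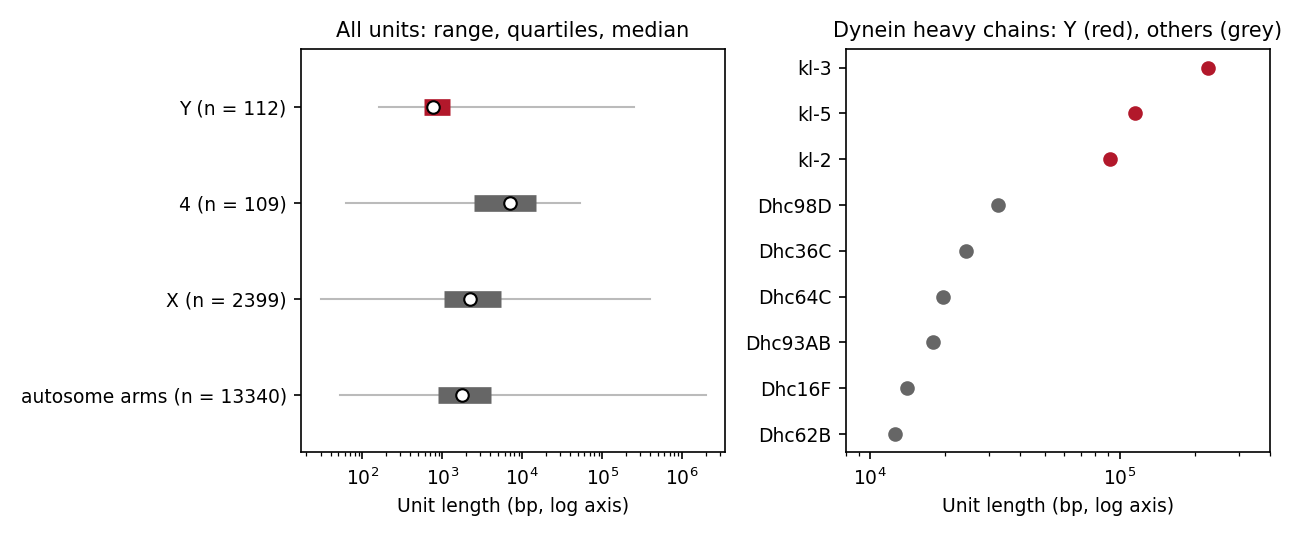
Left, unit length (bp, log axis) on the Y, chromosome 4, the X and the 4 autosome arms: thin lines give the range, thick bars the quartiles and circles the median, which is 766 bp on the Y and 6955, 2242 and 1767 bp on the others. Right, unit lengths of the listed dynein heavy chain genes, with the 3 of the Y (red) between 91086 and 226785 bp and the 6 listed on other chromosomes (grey) between 12587 and 32446 bp.

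Neighbouring units were also further apart. The median distance to the nearest unit on either strand was 1692 bp on the Y, 107 bp on chromosome 4, 72 bp on the X and 69 bp across the arms. On the same strand the Y and chromosome 4 were close to each other, at 3700 and 3655 bp, while the X had 1252 bp and the arms had 1001 bp. The Y median of 3700 bp is the gap that recurs in the Mst77Y array, so it rests on the spacing of that array. An overlap with the opposite strand was found for 12 Y units (10.7%), namely kl-3 with CR45947, Ppr-Y with CR40441 and the 4 overlapping tail-to-tail pairs. Such overlaps were found for 41.3% of units on chromosome 4, 38.6% on the X and 39.5% across the arms. A head-to-head start within 500 bp was found for 2 Y units (1.79%), against 12.8% on chromosome 4, 22.6% on the X and 24.9% across the arms. A single annotated transcript was listed for 109 of the 112 Y units (97.3%), against 29.4% of units on chromosome 4, 48.2% on the X and 55.5% across the arms. The Y units with 2 transcripts were ARY, FDY and the WDY unit, which holds 2 genes. Every non-coding Y unit had a single transcript. These shares were not split by gene class, and the Y had the largest share of non-coding units. The units of a chromosome are a full list and not a sample of replicates, so these differences are given as values and were not tested. Because Su(Ste), Mst77Y and CG12717-related units are copies, a read of one copy can match another, and how the authors placed such reads is not given in the sources used here.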

How the data were processed

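Positions, strands, lengths and gene names of transcription units were those the authors deposited. Per the file headers, rtracklayer 1.48.0 wrote the file, and how genes were merged is not given in the sources used here. The submitters' processing notes name build dm6, cutadapt 2.8, STAR 2.7.4a and SAMtools 1.20. Coordinates are 1-based. Members were all genes listed on the Y. Gene classes and synonyms came from RefSeq for Release 6, found through current symbols or, failing these, unambiguous synonyms (17626 of 17698 genes). Another 10 genes that RefSeq places on the Y, 7 of them Su(Ste) copies, and 21 it places on the X and Y together were not used here. Families followed symbols and RefSeq synonyms. A gap was the distance to the nearest unit, with 0 for overlap, and head-to-head starts lay 0 to 500 bp apart. Every protein-coding member was named. Non-coding ones were named if among the 3 longest or 3 shortest, first or last on the Y or in one of the 3 fullest clusters, or in a unit of several genes. Any other non-coding unit named, and CG12717, was chosen after its values were seen. Members, lists and limits were chosen with earlier results of these data known. No statistical test was run and no sample value, depth or p-value was used. Alternatives changed length limits, joining gaps, strand and overlap. The code for distances and clusters was checked on artificial units of known layout. Computation used Python 3.11.15, numpy 2.4.6, pandas 2.3.3, scipy 1.17.1 and matplotlib 3.10.9. Protein sequences were not used here.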

Additional observations from a re-analysis of the deposited data

How the results depend on the processing

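Of 28 alternative values, 15 stayed within 1.5 times the reported count, median or share, and the other 13 follow. Keeping units of at least 1000 bp left 38 units with a median of 1440.5 bp and a nearest gap of 6512 bp. Joining gaps of 20000 and 50000 bp gave 10 and 8 clusters, with 46 and 69 units in the largest. A joining gap of 5000 bp left 10 units in the largest, and joining on 1 strand left 13. The number of clusters at 5000 bp was 27 against 18, which sat at the limit of 1.5 times and was counted among the 15. The nearest gap on the same strand was 3700 bp. An overlap of at least 50% of the shorter unit was found for 3.57% of units, and head-to-head starts within 250 bp for 0 and within 1000 bp for 3.57%. The cause was not tested beyond the change of limit itself. No paired analysis was possible because no sample values were analysed. The comparison of protein sequences was not run.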

Other observations

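The following values were looked for after the data had been seen. Of the 112 Y units, 30 (26.8%) had the same length as another Y unit, in 13 lengths, whereas 0 of the 109 units of chromosome 4 did. Chromosome 4 holds longer units, but among units under 2000 bp the counts were 30 of 104 on the Y and 0 of 24 on chromosome 4. These counts rest on unlike numbers of units, and fewer units leave fewer pairs that could match. Under 2000 bp the share was 28.8% on the Y, 42.8% on the X and 65.4% for the autosome arms, which hold many more units (2399 and 13340 of all lengths). The most frequent length on the Y was that of the 4 pseudogenes of 266 bp, and 724 bp was shared by Mst77Y-7, Mst77Y-9 and CG45770, all protein-coding. In the same array CG45765 and CG45766 both measured 875 bp. CR41507 and CR41508, pseudogenes on the minus strand close to FDY, both measured 1259 bp. No Su(Ste) unit shared its length with another unit of the Y. A length of 766 bp was shared by Mst77Y-13 with CR46187 and CR46164 of the CG12717-related family.

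The length of 724 bp was also found in 9 of the 13 Ste units of the X. The families were not compared by sequence.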
